A study of Rattus norvegicus with 6 samples.

Results

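Adhesion G protein-coupled receptors are cell surface receptors whose genes carry the Adgr prefix, and every entry of the deposited gene table whose name starts with Adgr was taken. The rule found 25 of 32883 entries, which carry 24 names because Adgrg7 is listed under 2 identifiers. OPCs (oligodendrocyte precursor cells), dividing progenitors that give rise to oligodendrocytes, were grown from the cerebral cortices of newborn (P0) Sprague Dawley rats, pooled over animals. The control group received DMSO, the solvent, and the treated group received 5 µM ZJU-37, an inhibitor of the kinase RIPK1. Both groups were held for 36 h according to the sample labels (the Methods give a shorter time), in a medium without serum. Each group has 3 sequenced poly-A libraries. The Methods call the libraries biological repeats and a legend calls them plate wells, so p-values measure the spread between these libraries, which may be technical.

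An adhesion G protein-coupled receptor joins a long extracellular part, which binds matrix proteins or proteins of neighbouring cells, to a membrane part with the usual helices of a G protein-coupled receptor. Most members are cut during maturation at a site close to the membrane, and the stretch behind the cut can act as a built-in agonist once the outer part is pulled away. In the oligodendrocyte lineage the best known member is Adgrg1 (GPR56), which signals through Gα12/13 and RhoA, keeps OPCs dividing and declines as they differentiate. Adgrg6 (GPR126) is known for its role in myelination by Schwann cells, and Adgre1 (F4/80) is a classical surface marker of macrophages and microglia.

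Library totals ran from 13935865 to 24097927 counts, so that 3 counts, the limit used for a count of 0, correspond to between 0.124 and 0.215 CPM, the count scaled to library size. All other CPM values also take in a TMM factor per library. That limit covers counting error only. Among the OPC markers, Pdgfra stood at 60.4 CPM per kilobase of gene length with DMSO and 129 with ZJU-37, Olig1 at 374 and 582, Olig2 at 189 and 180, and Sox10 at 216 and 142. The cultures also held transcripts of other cells. The 8 microglia markers together reached between 1470 and 2471 CPM in the DMSO libraries and between 1060 and 2180 CPM in the ZJU-37 libraries, and 0 of the 8 were at 0 counts. The 8 astrocyte markers together reached 969 to 1597 CPM with DMSO and 878 to 1327 CPM with ZJU-37. The 8 oligodendrocyte markers reached 12850 to 24390 CPM with DMSO and 5063 to 10180 CPM with ZJU-37, without overlap of the groups. In such bulk libraries fewer cells of a type and less RNA per cell cannot be told apart.

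Of the 25 entries, 13 had enough counts to be tested (edgeR's filterByExpr). The tested members span the latrophilins (Adgrl1, Adgrl2, Adgrl3), the brain angiogenesis inhibitor group (Adgrb2, Adgrb3), Adgra2 and Adgra3, the immune cell receptors Adgre1 and Adgre5, the G group (Adgrg1, Adgrg5, Adgrg6) and the very large Adgrv1. The other 12 entries had few or no counts. Adgrg4 and both entries of Adgrg7 had 0 counts in every library, and Adgrf2 and Adgrf4 had at most 3 counts in any library. Adgre4, Adgrf3, Adgrf5 and Adgrl4 had at most 7 counts, and those of Adgrl4 were 5 counts in ZJU-37 replicate 3 and 0 elsewhere. Adgrl4 and Adgrf5 are known as endothelial receptors, and of the 5 endothelial markers found, Cldn5 was at 0 counts in all 6 libraries while Cdh5 had 166 to 306, Tek 19 to 33, Flt1 5 to 30 and Kdr 1 to 12. Adgrd1, Adgrg2 and Adgrg3 were above 3 counts in every library. In replicates 1, 2 and 3 Adgrg3 had 7, 4 and 8 counts under DMSO and 15, 9 and 15 under ZJU-37, while Adgrd1 ran from 5 to 16 and Adgrg2 from 4 to 13 over the 6 libraries. A further entry named AABR07005985.2 is described in the table as receptor A1. It falls outside the naming rule, had 33 to 94 counts, and differed by a log2 fold change of 0.19 ± 0.25 (SE; edgeR, adjusted p = 0.67).

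Levels of different members were compared as CPM per kilobase of gene length, on the TMM scale. By group mean Adgre1 stood highest, with 349 ± 107 in DMSO and 281 ± 127 in ZJU-37 cultures (SD, n = 3 libraries each), above 98.6% of the tested genes of the table. Adgrg1 followed with 74.0 ± 5.78 in DMSO and 135 ± 16.3 in ZJU-37 cultures, and lay at the 94.7th percentile. In ZJU-37 replicate 1 the order was reversed, with Adgrg1 at 153 and Adgre1 at 139. Adgrb2 had 44.4 ± 3.58 and 63.4 ± 7.12, and Adgrl1 had 38.4 ± 4.57 and 41.3 ± 6.68 in the same units. The DMSO libraries of Adgrb2 and Adgrl1 overlapped. Below them stood Adgra3, Adgrl3, Adgra2, Adgrb3, Adgre5, Adgrg6 and Adgrl2 in this order, with DMSO means from 14.1 down to 7.02. Adgra3 lay above the others in DMSO, and from Adgrl3 downward each neighbour overlapped with the next. Adgrg5 had a DMSO mean of 1.29, and Adgrv1 had one of 0.283, on this scale. Across libraries Adgre1 made up between 28.7% and 66.2% of the summed per-length level of all members, and Adgrg1 between 10.8% and 31.6%.

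**Figure D1:**
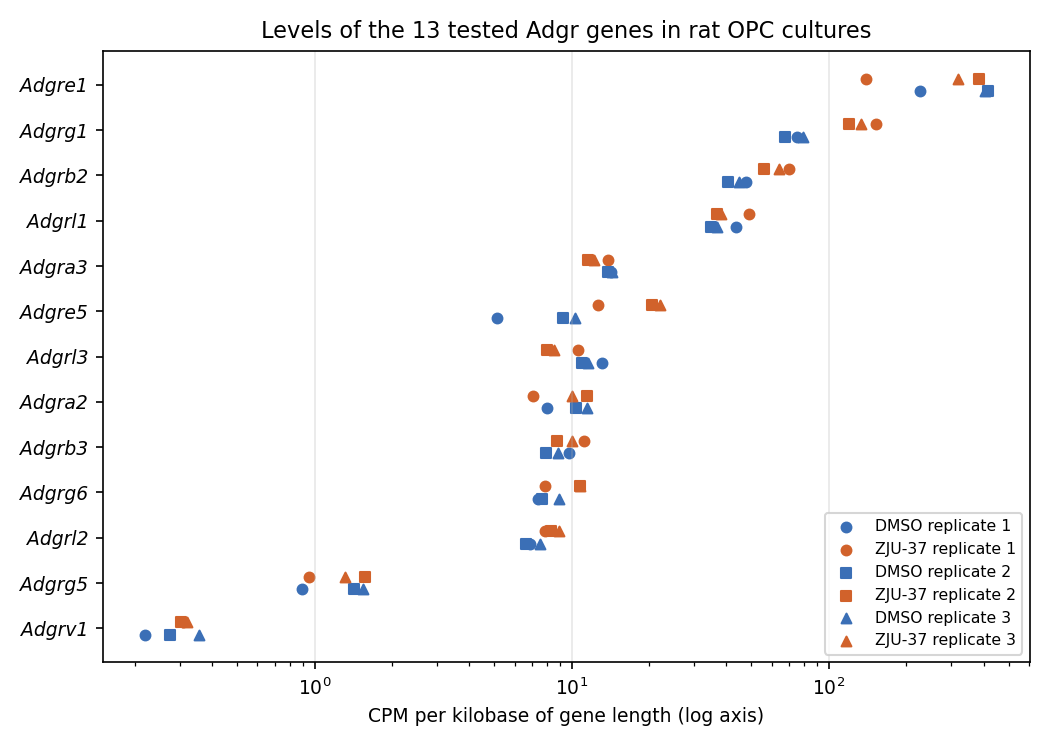
Level of each of the 13 tested Adgr genes in every library, as CPM per kilobase of gene length on a log axis, with DMSO libraries in blue, ZJU-37 libraries in orange and replicates 1 to 3 as circles, squares and triangles. Adgre1 and Adgrg1 lie at the top, and the blue and orange points do not overlap for 6 genes, with orange higher for Adgrg1, Adgrb2, Adgre5 and Adgrl2 and lower for Adgra3 and Adgrl3.

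Between the groups, 2 of the 13 tested members, Adgrg1 and Adgrb2, rose with ZJU-37 and 0 fell (edgeR's quasi-likelihood test, adjusted p under 0.05 over all tested genes). Of all 14670 tested genes, 9.43% were called higher and 5.58% lower. At an unadjusted p under 0.05 the same test gave 4 members higher and 1 lower, while DESeq2 gave 3 higher and 0 lower after adjustment and limma-voom 2 and 0. The count of 2 became 1 without DMSO replicate 2, without DMSO replicate 3 or without ZJU-37 replicate 3, and 4 higher with 1 lower without ZJU-37 replicate 1. Libraries with the same replicate number deviated together, so a fit with the replicate number as a block was also made. With this block 5 members were higher (Adgrg1, Adgrb2, Adgre5, Adgrg6 and Adgrl2) and 1 was lower (Adgrl3), against 16.2% and 15.9% of all tested genes. In 1 set of simulated counts, both fits made more false calls than their threshold allows, and the blocked fit made more than the other. Those counts held no pairing, unlike these libraries, so how firm the blocked calls are here was not tested. In 4 members (Adgrb2, Adgre5, Adgrg1 and Adgrl2) all ZJU-37 libraries lay above all DMSO libraries and in 2 (Adgra3 and Adgrl3) below, where 19.0% and 16.2% of all tested genes did so. The median log2 fold change of the 13 members was 0.13, and that of all tested genes -0.03. For a single gene, an exact two-sided permutation test of 3 libraries against 3 cannot give a p below 0.1.

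**Figure D2:**
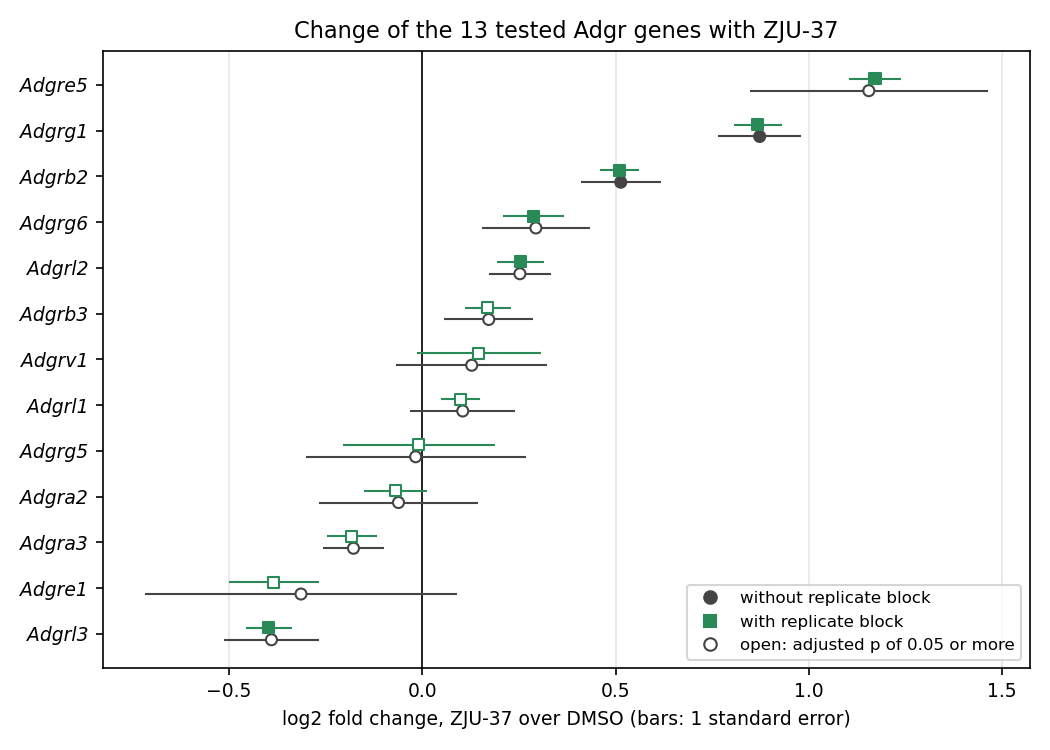
Log2 fold change of ZJU-37 over DMSO for each tested Adgr gene, with bars of 1 standard error, from the fit without the replicate block (circles) and with it (squares), where filled symbols have an adjusted p under 0.05. Filled circles stand at Adgrg1 (0.87) and Adgrb2 (0.51), and squares are filled for 6 genes, of which Adgrl3 is the one below 0.

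Adgrg1, the receptor linked to OPC division, lies in the table at positions 10423501 to 10460674 of chromosome 19, minus strand (ENSRNOG00000014963, genome build not given in the sources used here). Its level in replicates 1, 2 and 3 was 282, 254 and 297 CPM under DMSO, against 573, 452 and 500 CPM under ZJU-37. Every ZJU-37 library lay well above every DMSO library. The mean rose from 278 ± 21.7 to 508 ± 61.3 CPM (SD, n = 3 per group), with a log2 fold change of 0.87 ± 0.11 or 1.83-fold (SE; edgeR, adjusted p = 0.0026). The differences within the pairs of replicates 1, 2 and 3 were 1.02, 0.83 and 0.75 on the log2 scale. The gene sits between 2 relatives on the same strand, Adgrg3 at a gap of 2.49 kb and Adgrg5 at 34.8 kb. Adgrg5, an orphan receptor, had a log2 fold change of -0.02 ± 0.28 (SE; edgeR, adjusted p = 0.979), and Adgrg3 had too few counts for a test.

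Adgrb2 (BAI2), a receptor of the brain angiogenesis inhibitor group, lies in the table at positions 148193710 to 148231587 of chromosome 5, plus strand. Its level in replicates 1, 2 and 3 was 241, 205 and 226 CPM under DMSO, against 354, 283 and 322 CPM under ZJU-37. Again the groups did not overlap, although ZJU-37 replicate 2 came near to DMSO replicate 1. The mean rose from 224 ± 18.1 to 320 ± 36.0 CPM (SD, n = 3 per group), with a log2 fold change of 0.51 ± 0.10 or 1.43-fold (SE; edgeR, adjusted p = 0.0186). The pairs differed by 0.55, 0.46 and 0.51 on the log2 scale. Without DMSO replicate 2, DMSO replicate 3 or ZJU-37 replicate 3 the adjusted p was 0.0721, 0.0642 and 0.0591, and the log2 fold change stayed between 0.45 and 0.62 over all 6 fits that each left out 1 library.

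Adgre5 (CD97), a receptor of leukocytes and many other cells, lies in the table at positions 24855299 to 24875137 of chromosome 19, minus strand, 154 kb from Adgrl1. Its level in replicates 1, 2 and 3 was 16.0, 28.7 and 32.0 CPM under DMSO, against 39.3, 63.7 and 68.6 CPM under ZJU-37. Replicate 1 was the lowest in both groups, and all ZJU-37 libraries still lay above all DMSO libraries. The means were 25.6 ± 8.48 and 57.2 ± 15.7 CPM (SD, n = 3 per group), with a log2 fold change of 1.15 ± 0.31 or 2.23-fold, the largest of the 13 members (SE; edgeR, adjusted p = 0.0532). The fit with the replicate block gave 1.17 ± 0.07 (SE; edgeR, adjusted p = 1.81e-06). The pairs of replicates 1, 2 and 3 differed by 1.30, 1.15 and 1.10 on the log2 scale. DESeq2 without the block gave an adjusted p of 0.00104, limma-voom one of 0.0538, and edgeR without a filter on low counts one of 0.136. Library size as the only scaling gave 0.0453 (edgeR). Among the fits that each left out 1 library, Adgre5 passed only without ZJU-37 replicate 1 (adjusted p = 0.031, edgeR). The others gave adjusted p from 0.0763 to 0.152 (edgeR).

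**Figure D3:**
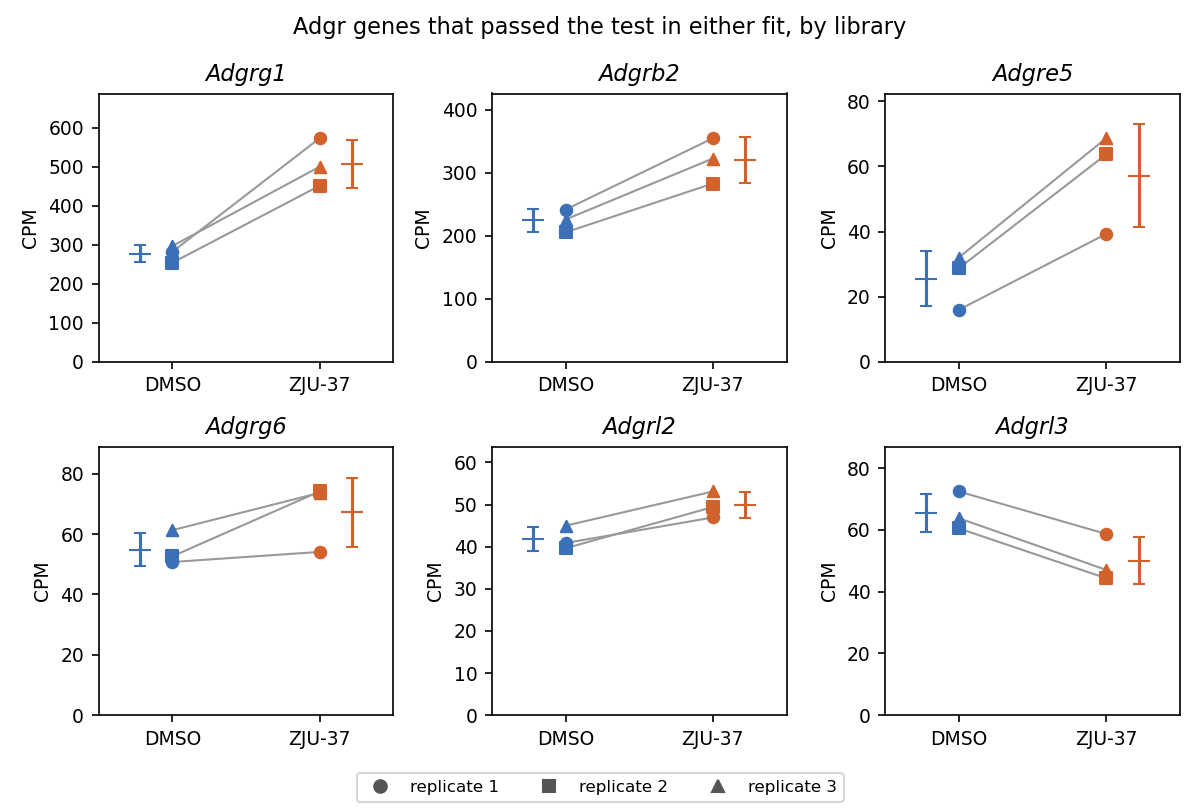
CPM of the 6 Adgr genes that passed the test without or with the replicate block, with DMSO libraries in blue, ZJU-37 libraries in orange, lines joining libraries of the same replicate number, and bars beside them for the mean ± SD of 3 libraries. All 3 lines rise for Adgrg1, Adgrb2, Adgre5, Adgrg6 and Adgrl2 and fall for Adgrl3, and for Adgre5 replicate 1 is the lowest library on both sides.

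The 3 receptors with the largest increases are represented here by the 250 bases before the transcript start that RefSeq gives on GRCr8, so that the start regions can be compared. Of the 24 member names, 18 had such an entry. RefSeq places Adgre5 on the plus strand of GRCr8, whereas the count table, whose build is not named, lists it on the minus strand. Capitals mark a loose frame of the binding site of NF-κB, a transcription factor that the study examined: 3 G, any 5 bases and 2 C, searched on both strands. Matches may overlap and then appear as 1 run.
Adgrg1, chr19:10047139-10047388, minus strand: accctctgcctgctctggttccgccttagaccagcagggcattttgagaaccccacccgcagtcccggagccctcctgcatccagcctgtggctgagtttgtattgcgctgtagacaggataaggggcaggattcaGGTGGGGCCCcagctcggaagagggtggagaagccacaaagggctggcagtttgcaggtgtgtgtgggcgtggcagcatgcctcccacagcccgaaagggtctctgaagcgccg
Adgrb2, chr5:147615262-147615511, plus strand: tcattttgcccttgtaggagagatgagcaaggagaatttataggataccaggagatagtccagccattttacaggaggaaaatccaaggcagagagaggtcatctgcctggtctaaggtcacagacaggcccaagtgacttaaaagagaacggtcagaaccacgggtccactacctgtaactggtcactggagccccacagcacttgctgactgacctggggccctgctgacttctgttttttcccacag
Adgre5, chr19:41303388-41303637, plus strand: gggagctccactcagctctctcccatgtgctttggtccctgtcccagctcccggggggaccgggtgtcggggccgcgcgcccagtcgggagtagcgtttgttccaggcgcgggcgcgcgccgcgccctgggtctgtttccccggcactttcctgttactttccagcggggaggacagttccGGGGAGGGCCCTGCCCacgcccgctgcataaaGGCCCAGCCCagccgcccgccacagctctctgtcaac

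The 3 windows differed in base composition and in matches. Adgre5 had 70% G and C with 22 CpG pairs, Adgrg1 had 62% with 9, and Adgrb2 had 50.4% with 2, while the median of all 33469 windows of this length was 51.2%. The NF-κB frame matched 5 times in the Adgre5 window, at 69 to 37 bases before the start, and once in the Adgrg1 window at 114 bases. The Adgrb2 window held 0 matches, and 42.3% of all windows held at least 1. Among the other tested members with a window, Adgrb3 held 3 matches, Adgre1 and Adgrg6 held 2 each, and Adgra3 held 1. Adgrl2 and every window of Adgrv1 held 0. Matches were not adjusted for base composition, and a link to the increases was not tested. A match is a description of letters, and gene counts do not show which start the cells use. Whether each window lies before the first exon used in these cells, and so acts as a promoter, was not tested.

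Among the latrophilins, neuronal adhesion receptors named after the spider toxin that binds them, levels and directions varied. Adgrl1, the most abundant, had 199 to 248 CPM in DMSO and 210 to 279 CPM in ZJU-37 libraries, with a log2 fold change of 0.10 ± 0.14 (SE; edgeR, adjusted p = 0.675). The level of Adgrl2 in replicates 1, 2 and 3 was 40.9, 39.6 and 45.0 CPM under DMSO, against 46.9, 49.4 and 53.1 CPM under ZJU-37. Its groups did not overlap but nearly touched, with a log2 fold change of 0.25 ± 0.08 (SE; edgeR, adjusted p = 0.0839 and 0.0111 with the block). The level of Adgrl3 in replicates 1, 2 and 3 was 72.4, 60.5 and 63.8 CPM under DMSO, against 58.7, 44.3 and 47.0 CPM under ZJU-37. It was lower in every pair, with a log2 fold change of -0.39 ± 0.12 (SE; edgeR, adjusted p = 0.0852 and 8.96e-04 with the block). Whether the responses of Adgrl2 and Adgrl3 differ was not tested.

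Adgrg6, which binds type IV collagen and laminin-211, was at 50.7, 52.6 and 61.3 CPM under DMSO and at 54.1, 74.1 and 73.6 CPM under ZJU-37, in replicate order. The groups overlapped, because ZJU-37 replicate 1 stayed within the DMSO range. The fit gave a log2 fold change of 0.29 ± 0.14 (SE; edgeR, adjusted p = 0.232 and 0.0213 with the block), and without ZJU-37 replicate 1 it was 0.44 (adjusted p = 0.0384, edgeR). Adgra2 (GPR124), a co-receptor for WNT7 proteins, had 32.1 to 45.9 CPM in DMSO and 28.5 to 46.2 CPM in ZJU-37 libraries, which overlapped (log2 fold change -0.06, adjusted p = 0.88, edgeR). Adgra3, a less studied relative, had 55.9 to 57.9 CPM in DMSO and 46.6 to 55.7 CPM in ZJU-37 libraries, without overlap but nearly touching, and a log2 fold change of -0.18 (adjusted p = 0.201, edgeR). Adgrb3 (BAI3), a receptor for C1q-like proteins, had a log2 fold change of 0.17 (adjusted p = 0.397, edgeR), and Adgrv1, known from inherited deafness, one of 0.13 (adjusted p = 0.725, edgeR). Adgra2, Adgra3, Adgrb3 and Adgrv1 did not pass with the block either.

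Adgre1 lies in the table at positions 9431860 to 9585865 of chromosome 9, minus strand. Its level in replicates 1, 2 and 3 was 738, 1355 and 1328 CPM under DMSO, against 455, 1254 and 1043 CPM under ZJU-37. Replicate 1 was the lowest library of both groups, and the spread within a group was larger than the distance between the groups. The fit gave a log2 fold change of -0.31 ± 0.40 (SE; edgeR, adjusted p = 0.673 and 0.064 with the block), and one of 0.02 without ZJU-37 replicate 1. Within the pairs it was lower by 0.70, 0.11 and 0.35 on the log2 scale. The summed level of the 8 microglia markers moved with it, being lowest in replicate 1 of both groups and lower within the pairs by 0.47, 0.18 and 0.28. Of these 8 markers 0 passed the test without the block, and Csf1r and C1qa were lower with it (adjusted p = 0.00167 and 7.01e-04, edgeR). Over all tested genes 15.9% were lower with the block. Per kilobase of gene length Adgre1 (349 in DMSO) lay above Csf1r (169) and Aif1 (165) and below C1qa (524). It lay far above the other listed markers, which were Itgam (31.6), Ptprc (31.0), P2ry12 (10.4), Tmem119 (10.3) and Cx3cr1 (8.4). The part of microglia in the Adgre1 values was not tested.

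**Figure D4:**
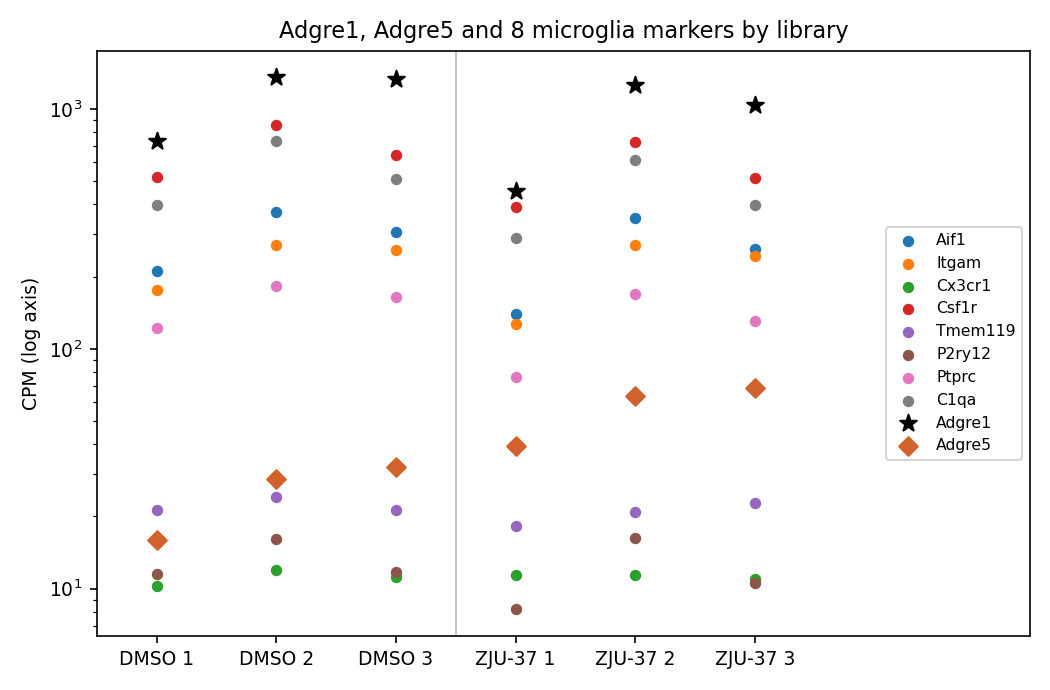
CPM on a log axis of Adgre1 (stars), Adgre5 (diamonds) and the 8 microglia markers (dots) in each of the 6 libraries. Adgre1 dips in replicate 1 of both groups together with Csf1r, C1qa, Aif1, Itgam and Ptprc, Cx3cr1 does not follow in the ZJU-37 libraries (11.3, 11.4 and 10.9 CPM), and Adgre5 stands higher in every ZJU-37 library than in every DMSO library.

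The order of replicates was shared by several members. Replicate 1 was the lowest library in both groups for 5 of the 13 members (Adgra2, Adgre1, Adgre5, Adgrg5 and Adgrg6). It was the highest in both groups for 4 (Adgrb2, Adgrb3, Adgrl1 and Adgrl3). The share of all tested genes with either order was not counted, so this is not shown to be particular to the family. All 3 pairs were higher with ZJU-37 for 7 of the 13 members and lower for 3 (Adgra3, Adgre1 and Adgrl3), where 28.4% of all tested genes were higher and 33.3% lower in all 3 pairs. Adgre5 and the microglia markers shared the low replicate 1, but within pairs Adgre5 was higher with ZJU-37 and the summed microglia markers were lower.

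The genes for known ligands and co-receptors of the family were listed apart. Of 28 genes, 27 were found and 26 tested, of which 3 rose and 3 fell (edgeR's test), where 15.0% of all tested genes were called in either direction. With the block 7 were higher and 5 lower, beside 16.2% and 15.9% of all tested genes. The block added Flrt3, Wnt7a, Col4a1 and Col4a2 above and Tenm4 and Col3a1 below. Of the 6 genes called without the block, 3 encode C1q-like proteins, which bind Adgrb3. C1ql1, a secreted protein of OPCs, fell from 80.9 ± 8.89 to 29.7 ± 4.03 CPM (SD, n = 3 per group), with a log2 fold change of -1.45 (adjusted p = 6.13e-04 in edgeR's test). C1ql3 fell by 1.50 on the log2 scale, from 5.27 to 1.86 CPM (adjusted p = 0.00221, edgeR). C1ql2 rose by 2.00, from 2.95 to 11.8 CPM (adjusted p = 0.0018, edgeR), and C1ql4 was at 1.3 to 1.68 CPM in DMSO and 0.918 to 1.36 CPM in ZJU-37 libraries. Members of 1 ligand family thus went in opposite directions.

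Wnt7b, a WNT ligand that Adgra2 and Reck make effective, rose from 36.2 ± 1.33 to 79.8 ± 8.53 CPM (SD, n = 3 per group), with a log2 fold change of 1.14 (adjusted p = 5.34e-04 in edgeR's test). Wnt7a had a log2 fold change of 0.49 (adjusted p = 0.164, and 0.00229 with the block, edgeR), and Reck one of 0.04 (adjusted p = 0.865, edgeR). Of the latrophilin ligands, the teneurin Tenm3 rose by 0.47 (adjusted p = 0.0265, edgeR), from 59.6 to 82.7 CPM. Flrt1, a leucine-rich repeat protein, fell by 1.36 on the log2 scale (adjusted p = 0.00492, edgeR), from 18.6 to 7.27 CPM. Its relative Flrt3 had a log2 fold change of 0.70 (adjusted p = 0.0727, and 0.00158 with the block, edgeR), and the teneurin Tenm4 one of -0.31 (adjusted p = 0.511, and 0.0364 with the block, edgeR). Neither listed ligand gene of Adgrg1 passed without the block. Tgm2, which encodes transglutaminase 2, had 48.3 to 93.1 CPM in DMSO and 39.5 to 85.1 CPM in ZJU-37 libraries (log2 fold change -0.12, adjusted p = 0.854, edgeR), and Col3a1 had a log2 fold change of -0.49 (adjusted p = 0.319, and 0.0383 with the block, edgeR). For Adgre5, the ligand gene Cd55 had 2 to 14 counts and was not tested, and Thy1 had a log2 fold change of -0.42 (adjusted p = 0.612, edgeR). For Adgrg6, the type IV collagen genes Col4a1 and Col4a2 had log2 fold changes of 0.45 and 0.36 (adjusted p = 0.0652 and 0.13, and 2.04e-04 and 0.005 with the block, edgeR). Its other listed ligands, Lama2, a chain of laminin-211, and Prnp, the prion protein, had log2 fold changes of 0.01 and -0.15 (adjusted p = 0.995 and 0.344, edgeR) and did not pass with the block.

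On the side of signalling, 22 genes for G protein α subunits and effectors were listed, 21 were found, and 22 entries were tested because Gnas is listed under 2 identifiers. Of these, 2 rose and 2 fell (edgeR's test), near the share of 15.0% called in either direction over all tested genes. With the block 4 were higher and 4 lower, near the 32.1% of all tested genes called in that fit. The block added Gnai3 and Arhgef11 (log2 fold changes 0.18 and 0.25) and Gnao1 and Rac1 (-0.23 and -0.27). Gna12, whose product couples Adgrg1 to RhoA, fell from 649 ± 35.2 to 502 ± 30.7 CPM (SD, n = 3 per group), with a log2 fold change of -0.37 (adjusted p = 0.0208 in edgeR's test). Its relative Gna13 and Rhoa had log2 fold changes of 0.06 and -0.08 (adjusted p = 0.651 and 0.583, edgeR). Rock2, a kinase that RhoA activates, rose by 0.29 on the log2 scale (adjusted p = 0.017, edgeR). Elmo1, an adaptor that activates Rac with the exchange factor Dock1, fell from 132 ± 10.7 to 72.4 ± 9.29 CPM (SD, n = 3 per group), with a log2 fold change of -0.87 (adjusted p = 0.00269 in edgeR's test). Tiam1, another activator of Rac, rose by 0.67 (adjusted p = 0.0417, edgeR). Without DMSO replicate 2 or DMSO replicate 3 the count of 2 risen effectors was 0, and without DMSO replicate 1 or ZJU-37 replicate 3 it was 1. The count of 2 fallen effectors was 1 without DMSO replicate 1, DMSO replicate 2 or ZJU-37 replicate 3.

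**Figure D5:**
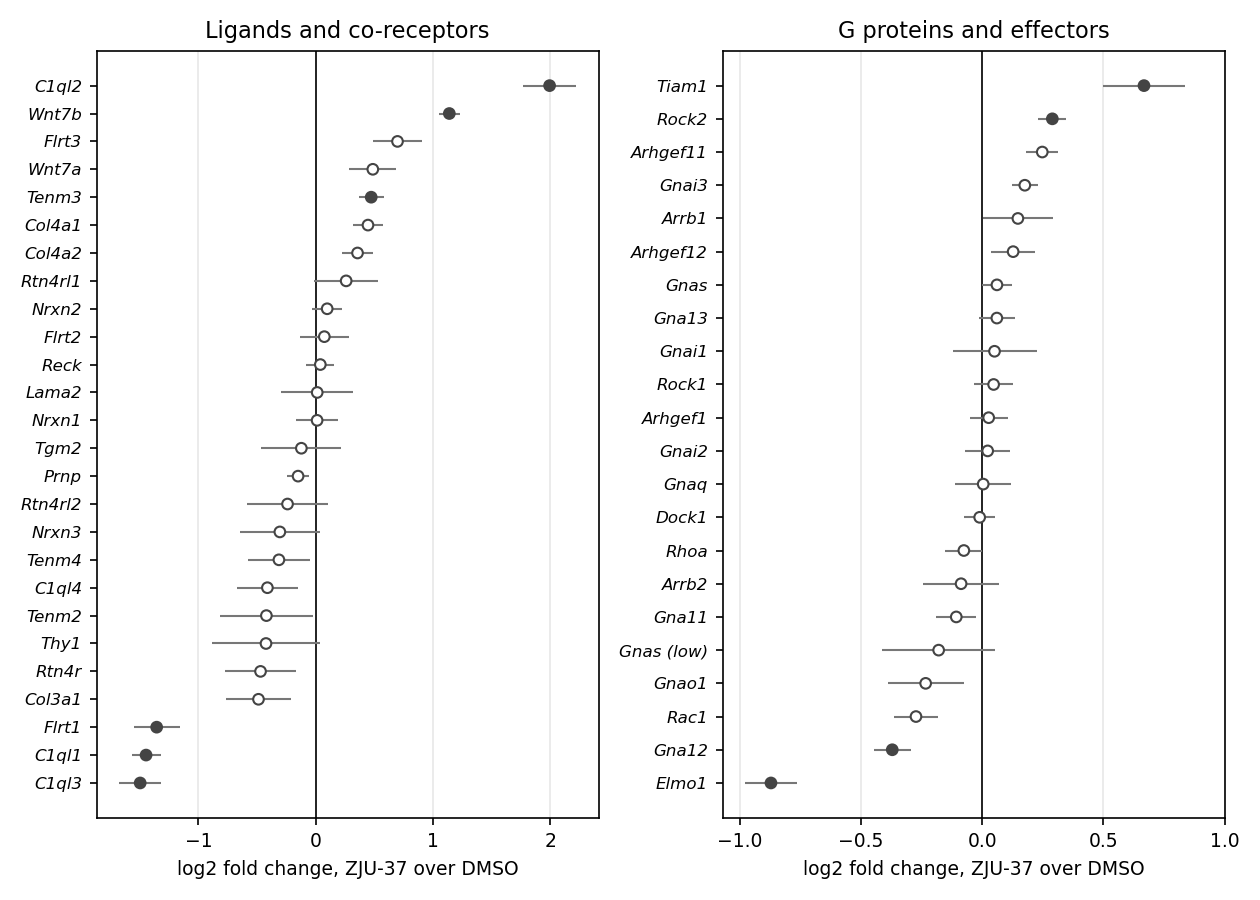
Log2 fold change of ZJU-37 over DMSO with bars of 1 standard error for the tested ligands and co-receptors (left) and for the tested G proteins and effectors (right), where filled points have an adjusted p under 0.05 in the fit without the block and "low" marks the Gnas entry with few counts. C1ql2, Wnt7b and Tenm3 are filled on the right of 0 and Flrt1, C1ql1 and C1ql3 on the left, and among effectors Tiam1 and Rock2 stand opposite Gna12 and Elmo1.

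The 3 Celsr genes, adhesion receptors of planar cell polarity, carry no Adgr name in the table. Celsr2 rose from 129 ± 6.90 to 183 ± 22.4 CPM (SD, n = 3 per group), with a log2 fold change of 0.50 (adjusted p = 0.0179 in edgeR's test). Celsr1 had a log2 fold change of -0.42 (adjusted p = 0.193, and 0.0125 with the block, edgeR), and Celsr3 one of 0.05 (adjusted p = 0.9, edgeR). Without DMSO replicate 2, DMSO replicate 3 or ZJU-37 replicate 3, 0 of the 3 genes passed.

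The tested members were also set beside the markers of the lineage. Of the 7 OPC markers found, 4 rose (Pdgfra, Cspg4, Olig1 and Ptprz1) and 2 fell (Sox10 and C1ql1, edgeR's test without the block). Of the 8 oligodendrocyte markers 0 rose and 3 fell in that test (Cnp, Myrf and Bcas1). Over all tested genes 9.43% were called higher and 5.58% lower. Pdgfra, the growth factor receptor that defines OPCs, had a log2 fold change of 1.10, beside 0.87 for Adgrg1, and their difference was not tested. Of the 8 astrocyte markers 7 had negative log2 fold changes (median -0.26), yet without the block 1 passed, Sox9, which rose (edgeR). With the block 4 of the 8 astrocyte markers were lower (Gfap, Aqp4, Gja1 and Fgfr3), as were 3 of 7 neuronal markers (Syt1, Gad1 and Gad2). So were 1 of 3 tested endothelial markers (Cdh5) and 1 of 4 tested mural and fibroblast markers (Lum). Of the genes just named as lower with the block 0 passed without it (edgeR). Over all tested genes 15.9% were lower with the block. The part of a changed mix of cells or lineage stages in the receptor values was not tested.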

How the data were processed

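The study sequenced poly-A RNA of rat OPCs, and the authors deposited 1 table of raw read counts per gene, neither normalized nor filtered. Per the labels, processing used HISAT2 2.0.5, StringTie 1.3.3b and featureCounts 1.5.0. The genome build and the strand setting are not given in the sources used here. The table's gene length, which the authors deposited as another column, was used for levels per kilobase. The authors' FPKM values and their own comparison (fold changes and p-values) were not used.

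Counts of all genes were filtered with filterByExpr, scaled by TMM (factors 0.981 to 1.04) and compared by the quasi-likelihood test of edgeR 4.0.16 under R 4.3.3, with robust dispersion estimates. Benjamini-Hochberg adjustment covered 14670 genes. Each standard error (SE) is the log2 fold change divided by the root of F. Depth was 13935865 to 24097927 counts per library. No pair within a group agreed within sampling noise (smallest chi-square per degree of freedom 11.8). Both fits were tested on 1 set of simulated data without pairing. False calls were somewhat above the nominal share without the block and clearly above it with the block.

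The replicate numbers come from the sample titles. Deviations of same-numbered libraries correlated with r = 0.455, 0.353 and 0.368 across genes, which are not independent replicates, and all others had r of at most 0. Each gene was centred within its group first, so positive same-number values push the others below 0. Those others are therefore no separate evidence of pairing. Alternatives were DESeq2 1.42.0, limma-voom (limma 3.58.1), other scalings and filters, the replicate block and leaving out each library.

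Every Adgr entry is accounted for, tested members are named with values, and called members are given by library. Of the ligand, signalling and Celsr lists, written from general knowledge, genes called without or with the block and the ligands of called members are named. Any others named were chosen after their values were seen. The members and lists were chosen with earlier results of these data known. Start regions come from RefSeq on GRCr8, whose coordinates were not mixed with those of the table.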

Additional observations from a re-analysis of the deposited data

How the results depend on the processing

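With the replicate block 5 Adgr members were called higher and 1 lower, 7 ligand genes higher and 5 lower, 4 signalling genes higher and 4 lower, 2 Celsr genes in all, and 2371 genes of the table higher and 2334 lower. DESeq2 called 5 ligand genes higher, and limma-voom called 1 signalling gene higher. Leaving out 1 library at a time gave 1 to 4 Adgr members higher and 0 to 1 lower, 2 to 3 ligand genes higher and 3 lower, 0 to 3 signalling genes higher and 1 to 2 lower, 0 to 1 Celsr genes, and 858 to 1259 genes of the table higher and 374 to 668 lower. The count of 1 Adgr member arose without DMSO replicate 2, without DMSO replicate 3 and without ZJU-37 replicate 3, and 4 without ZJU-37 replicate 1. Adgrg1 passed in every alternative run, with log2 fold changes from 0.80 to 0.98. Adgre5 passed with the block, with DESeq2, with library size as the only scaling (adjusted p = 0.0453, edgeR) and without ZJU-37 replicate 1 (adjusted p = 0.031, edgeR). Across the 6 fits that omit 1 library, log2 fold changes ran from -0.19 to 0.12 for Adgra2, from -0.58 to 0.024 for Adgre1, from -0.22 to 0.17 for Adgrg5, from -0.016 to 0.21 for Adgrl1 and from -0.023 to 0.33 for Adgrv1, and that of Adgrg5 was 0.0055 with library size only. The causes of these shifts were not tested. None of these 5 passed the test in any alternative. With 3 libraries a group, members at few counts could not be tested, and an unpassed test does not show that a member did not change.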
